A study of Mus musculus with 14 samples.

Results

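C-type lectins and Siglecs are receptors that read sugars on cells and microbes, and 47 genes of these families were followed in GFP+CD11b+ myeloid cells from breast cancer brain metastases (BrM), spleen and bone marrow. Members were all genes whose symbol on the array was Clec followed by a digit or started with Cd209 or Siglec, together with Mrc1, Mrc2, Cd22, Cd33 and Mag. They were 47 of the 19057 genes with 1 symbol per probe, and each was read from its probe with the highest mean over the 14 arrays. Of the 47, 24 had more than 1 probe. The 6 conditions were PyMT BrM (n = 4), spleens of PyMT BrM-bearing mice (n = 3), bone marrow of a PyMT BrM-bearing mouse (n = 1), EO771 BrM (n = 2), naïve spleens (n = 2) and naïve bone marrow (n = 2). The tumors grew for about 2 weeks in the brain from implanted cells of the mouse mammary cancer lines PyMT or EO771. All arrays came from C57Bl/6J mice aged 14 weeks that had been irradiated and carried GFP-marked donor marrow, so the cells sorted were progeny of transplanted stem cells. Spleen and marrow of EO771-bearing mice could not be obtained for the study, and those of naïve mice stood in for them. Tumor model, presence of a tumor in the control mouse and the set of mice therefore cannot be told apart in comparisons across the PyMT and the EO771/naïve arrays. The study's methods call the arrays of a condition biological replicates, and count more PyMT spleens than are analysed here. The labels do not say that they came from separate mice. The codes of the naïve bone marrow arrays share a stem, and 1 EO771 BrM code joins a pair of numbers. Stems are also shared between PyMT BrM, spleen and bone marrow arrays, and between a naïve spleen and the naïve bone marrow arrays. Whether a shared stem marks the same mouse is not stated, and the fit treats all arrays as unpaired. The p-values therefore measure the spread between these arrays.

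C-type lectin receptors bind carbohydrates, lipids or proteins through a shared fold. In myeloid cells some, such as dectin-1 (Clec7a), carry their own activating motif, others, such as dectin-2 (Clec4n), Mincle (Clec4e) and MDL-1 (Clec5a), signal through the adaptors Fcer1g or Tyrobp to the kinase Syk, and others, such as DCIR2 (Clec4a4), carry inhibitory motifs that recruit phosphatases such as Ptpn6. Siglecs bind sialic acid: sialoadhesin (Siglec1), Cd22 and Mag are conserved between mammals, while the Cd33-related Siglecs are mostly inhibitory receptors of leukocytes. Macrophages are known for the mannose receptor Mrc1 and for sialoadhesin, B cells for Cd22 and Siglecg, and the liver sinus endothelium for Clec4g.

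The values were log2 signals with a median of 4.06 on each array. A background ceiling of 4.65 was set at the 95th percentile of the probes for olfactory and vomeronasal receptors, genes that myeloid cells are not known to use. In at least 1 condition 33 of the 47 members (70.2%) had a mean above this ceiling, as had 46.1% of all 45281 probes. The other 14 members (Cd209e, Cd209g, Clec2g, Clec2l, Clec2m, Clec3a, Clec3b, Clec4a2, Clec4f, Clec11a, Clec12b, Clec14a, Clec18a and Siglecf) had condition means of 1.42 to 4.57 and are given no direction, with the exception of 1 call described with the spleen. Siglecf, known from eosinophils, had condition means of 2.29 to 3.71. The eosinophil genes Prg2, Epx, Ccr3 and Il5ra had a summed log2 signal of 13.3 to 14.4 in bone marrow, most of it from Prg2. Levels of different genes are not compared, since each probe has its own brightness.

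The array labelled PyMT spleen 2 stood apart from the other spleens. Over all probes it correlated with them at 0.899 to 0.907 and with the bone marrow arrays at 0.937 to 0.949. Its summed log2 signals were 14.1 for the eosinophil list (8.29 to 9.78 in the other spleens), 14.1 for granulocyte precursor genes (11.6 to 12.2), 12.2 for macrophage genes (13.8 to 14.8) and 9.17 for B cell genes (12.4 to 12.8), each nearer to bone marrow than to the other spleens. Counts of calls that rest on spleen are therefore given with and without it, and single values also without it where the call or the size depends on it. The array was singled out from these same values, so p-values without it follow that choice. Marker lists of cell types also differed between the sorted samples. Neutrophil genes summed to 12.5 to 14.4 in BrM and 16.5 to 17.1 in the organs. Macrophage genes summed to 15.5 to 16.0 in BrM and 12.1 to 14.8 in the organs. In these cells sorted for the donor marker GFP, microglia genes summed to 11.5 to 14.4 in BrM and 8.16 to 9.03 in the organs. Of 8 measured microglia genes, Tmem119, Olfml3, Fcrls and Cx3cr1 were called higher than in spleen. P2ry12 was not, with means of 5.73 and 6.01 in BrM and 4.78 to 5.94 in the organs. The epithelial list (Krt8, Krt18, Epcam and Cdh1) summed to 7.89 to 9.63 in BrM and 6.20 to 6.67 in the organs, with Krt8, Krt18 and Cdh1 called higher than in spleen, Krt18 and Cdh1 also higher in PyMT than in EO771 BrM, and Epcam below the ceiling in every condition. Of 7 red pulp and marginal zone macrophage genes, 4 were called lower in BrM than in spleen (Spic, Vcam1, Slc40a1 and Marco). In such bulk samples, fewer cells of a type and less RNA per cell cannot be told apart, and the part of these lists in the results below was not tested.

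Promoter sequences are shown for 5 genes of the dectin-2 group, because its members lie side by side and several differed between the BrM models. The 8 dectin-2 group genes lie on chromosome 6 in the order Clec4a1, Clec4a3, Clec4a4, Clec4b1, Clec4a2, Clec4n, Clec4d and Clec4e, with 1 other annotated coding gene among them, between Clec4a2 and Clec4n. The 200 bases before the RefSeq start sites of 5 of them (GRCm38.p6) are printed 5′ to 3′ along the gene, in lower case with the letters GAGGAA, the core of sites bound by the myeloid factor PU.1, or their reverse complement in capitals.
Clec4a1, chr6:122921648-122921847, plus strand: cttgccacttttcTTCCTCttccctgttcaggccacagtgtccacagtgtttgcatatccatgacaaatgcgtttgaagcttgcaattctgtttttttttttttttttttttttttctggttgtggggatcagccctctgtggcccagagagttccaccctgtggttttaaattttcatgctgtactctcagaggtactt
Clec4a3, chr6:122952315-122952514, plus strand: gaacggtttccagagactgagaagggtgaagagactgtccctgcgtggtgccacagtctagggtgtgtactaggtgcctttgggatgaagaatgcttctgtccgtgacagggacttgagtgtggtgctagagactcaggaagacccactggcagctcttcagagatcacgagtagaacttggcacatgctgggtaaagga
Clec4b1, chr6:123049762-123049961, plus strand: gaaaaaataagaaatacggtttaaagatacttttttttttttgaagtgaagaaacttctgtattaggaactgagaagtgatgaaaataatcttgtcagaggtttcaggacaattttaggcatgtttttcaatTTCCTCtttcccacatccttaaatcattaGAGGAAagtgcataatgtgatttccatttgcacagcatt
Clec4d, chr6:123261907-123262106, plus strand: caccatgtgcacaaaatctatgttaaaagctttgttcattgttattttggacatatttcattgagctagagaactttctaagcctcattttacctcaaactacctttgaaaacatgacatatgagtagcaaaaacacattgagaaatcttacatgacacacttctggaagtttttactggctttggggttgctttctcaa
Clec4e, chr6:123289872-123290071, minus strand: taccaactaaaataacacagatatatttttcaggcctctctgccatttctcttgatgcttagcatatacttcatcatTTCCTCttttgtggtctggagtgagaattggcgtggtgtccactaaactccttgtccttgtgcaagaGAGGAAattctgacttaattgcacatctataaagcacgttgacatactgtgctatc
These letters occurred 1 time before Clec4a1, 2 times each before Clec4b1 and Clec4e, and not in the windows shown for Clec4d and for this start of Clec4a3, which has 2 starts in the table. Promoters were found for 39 of the 47 members. Counting a gene once if any of its starts held the letters on either strand, 17 of the 39 had GAGGAA, against 21.3% of all 27025 genes in the table. The C/EBP letters TTGCNNAA stood before 7 of the 39 (8.55% of all genes), Clec4e among them, the interferon response element (GAAA, any 2 bases, GAAA) before 2 (2.65%), Clec4b1 and Clec2d, and the ETS-IRF composite (GGAA, any 2 bases, GAAA), which can overlap the PU.1 core and the interferon element, before 4 (2.14%). These are matches of letters and not measured binding sites.

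BrM was compared with spleen and with bone marrow as the mean of the PyMT and the EO771/naïve differences. Against spleen, 3 members were higher and 3 lower at an adjusted p under 0.01, where 3.67% of all probes were higher and 3.08% lower. Against bone marrow, 4 were higher and 2 lower, where 4.19% of all probes were higher and 3.60% lower. Both comparisons use the same 6 BrM arrays. The median difference of the members was -0.14 against spleen and -0.16 against bone marrow on the log2 scale, beside 0.00138 and -0.02 over all probes.

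**Figure D1:**
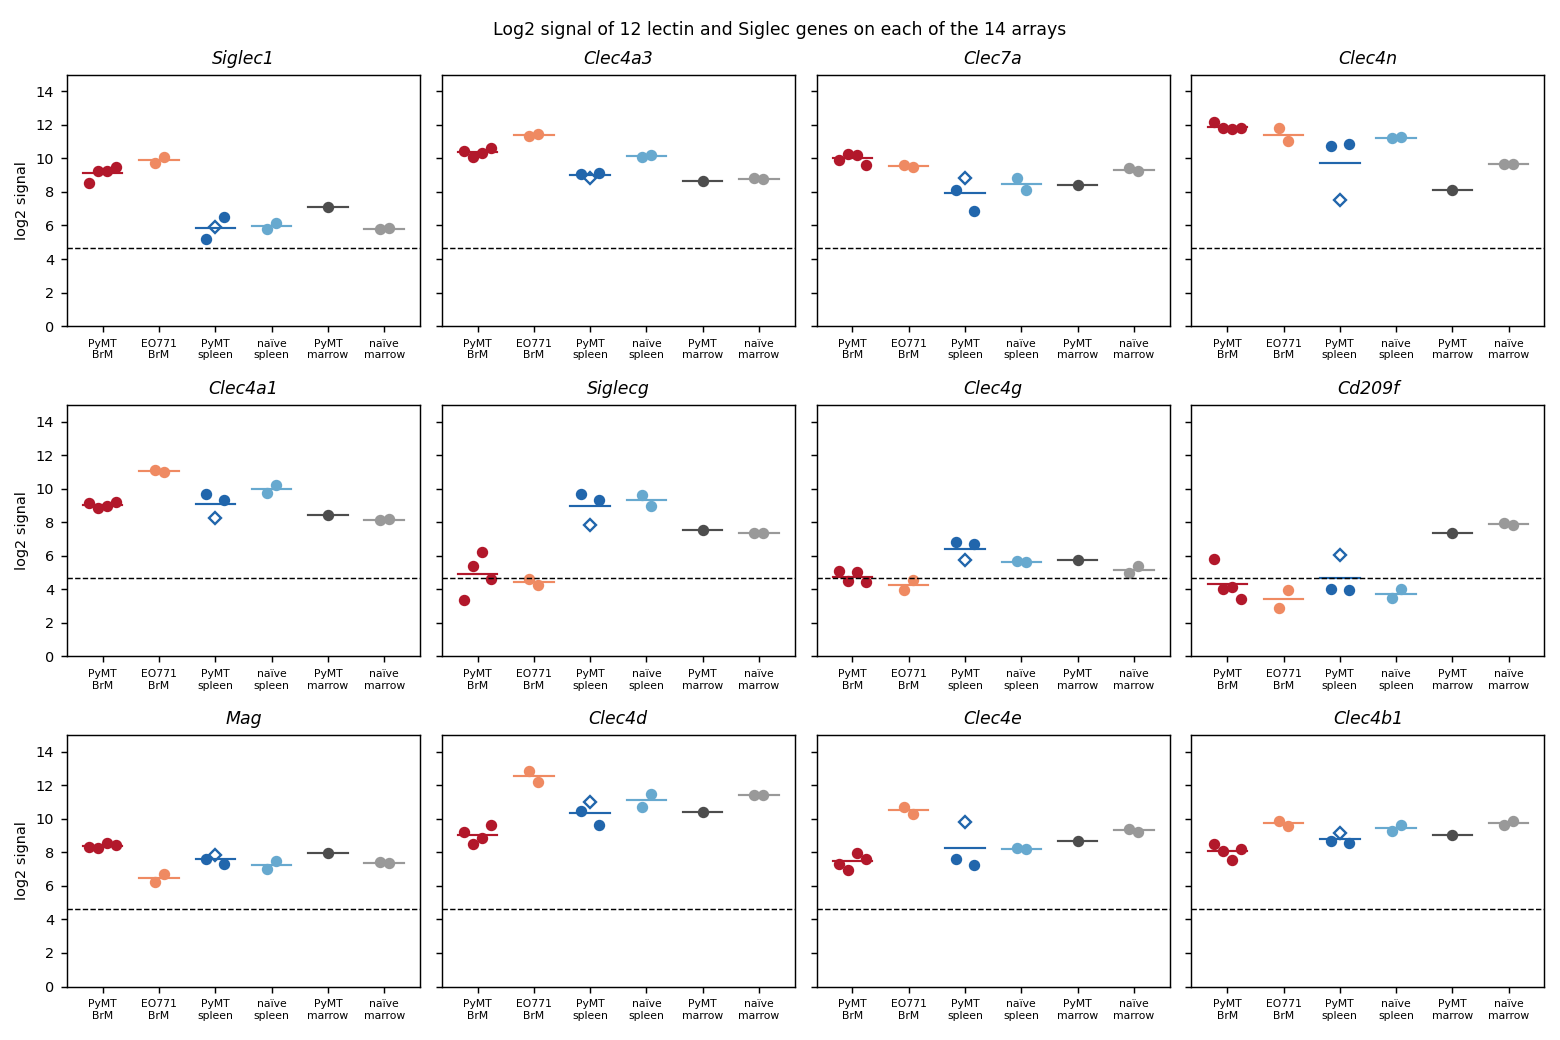
Log2 signal (y axis) of 12 members on each of the 14 arrays, by condition (x axis); points are arrays, short lines condition means, the open diamond is PyMT spleen 2 and the dashed line is the background ceiling of 4.65. Siglec1 lay at 8.55 or more on all 6 BrM arrays and at 7.10 or less on the other 8.

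Sialoadhesin (Siglec1), a sialic acid receptor of macrophages without inhibitory motif, had the largest rise of the members against either organ. Its log2 signals were 8.55, 9.26, 9.23 and 9.46 in PyMT BrM and 9.73 and 10.11 in EO771 BrM. They were 5.18, 5.94 and 6.49 in PyMT spleens, 5.77 and 6.14 in naïve spleens, 7.10 in PyMT bone marrow and 5.79 and 5.84 in naïve bone marrow. No BrM array overlapped with any array of an organ. BrM exceeded spleen by 3.61 ± 0.26 (log2, SE; 12.2-fold; adjusted p = 5.84e-06) and bone marrow by 3.07 ± 0.31 (8.37-fold; adjusted p = 7.77e-05). The rise against spleen was 3.26 ± 0.32 for PyMT and 3.97 ± 0.41 for EO771 against naïve, each called on its own.

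The dectin-2 group contributed 4 of the 7 rises called in the pair of comparisons. Clec4a3 (DCIR3) read 10.45, 10.06, 10.30 and 10.63 in PyMT BrM and 11.31 and 11.44 in EO771 BrM, 9.10, 8.85 and 9.15 in PyMT spleens, 10.09 and 10.22 in naïve spleens, 8.64 in PyMT bone marrow and 8.81 and 8.77 in naïve bone marrow. Within each mouse set all BrM arrays lay above all spleen arrays, although PyMT BrM 2 lay below both naïve spleens. The rise was 1.27 ± 0.16 against spleen (2.42-fold; adjusted p = 0.000315) and 2.15 ± 0.19 against bone marrow (4.45-fold; adjusted p = 3.77e-05), and the second Clec4a3 probe, with condition means of 2.66 to 6.99 that passed the ceiling only in EO771 BrM and naïve spleens, differed by 1.31 and 1.88 (adjusted p = 0.00409 and 0.00118). Clec4n, which encodes dectin-2, a receptor of fungal mannans, was at 12.14, 11.80, 11.75 and 11.78 in PyMT BrM, 11.82 and 11.03 in EO771 BrM, 8.12 in PyMT bone marrow and 9.65 and 9.66 in naïve bone marrow. Its spleen values were 10.74, 7.55 and 10.85 in PyMT mice and 11.20 and 11.28 in naïve mice, the value of 7.55 being that of PyMT spleen 2. Against bone marrow it rose by 2.76 ± 0.62 (6.78-fold; adjusted p = 0.0098), a call that held only without a PyMT spleen among the fits that left out 1 array (11 of 14 lost it, adjusted p up to 0.0786). Against spleen the difference was 1.17 ± 0.52 (adjusted p = 0.183), and 0.63 ± 0.18 (adjusted p = 0.0357) without PyMT spleen 2.

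Clec4a1 (DCIR4) had 9.13, 8.82, 8.96 and 9.21 in PyMT BrM, 11.12 and 10.98 in EO771 BrM, 8.45 in PyMT bone marrow and 8.11 and 8.18 in naïve bone marrow. BrM exceeded bone marrow by 1.74 ± 0.29 (3.34-fold; adjusted p = 0.00181). That mean joined 0.58 ± 0.44 in PyMT mice (adjusted p = 0.574) and 2.91 ± 0.39 for EO771 against naïve (adjusted p = 0.000823). Clec4a4 (DCIR2), an inhibitory receptor known from a subset of spleen dendritic cells, ran the other way against spleen. It was at 7.03 to 7.60 in 4 spleens and at 3.23 in PyMT spleen 2, at 3.73 to 5.25 in BrM and at 2.92 to 4.43 in bone marrow. The difference from spleen was -1.96 ± 0.60 (adjusted p = 0.0529) with all arrays and -2.61 ± 0.19 (adjusted p = 7.37e-06) without PyMT spleen 2. Since the 4 PyMT BrM arrays were under the ceiling, the other spleens are given as at least 5.05-fold higher. Clec4b1, Clec4d and Clec4e did not differ past the threshold from either organ (differences -0.51 to 0.75), and their values are given with the BrM models.

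**Figure D2:**
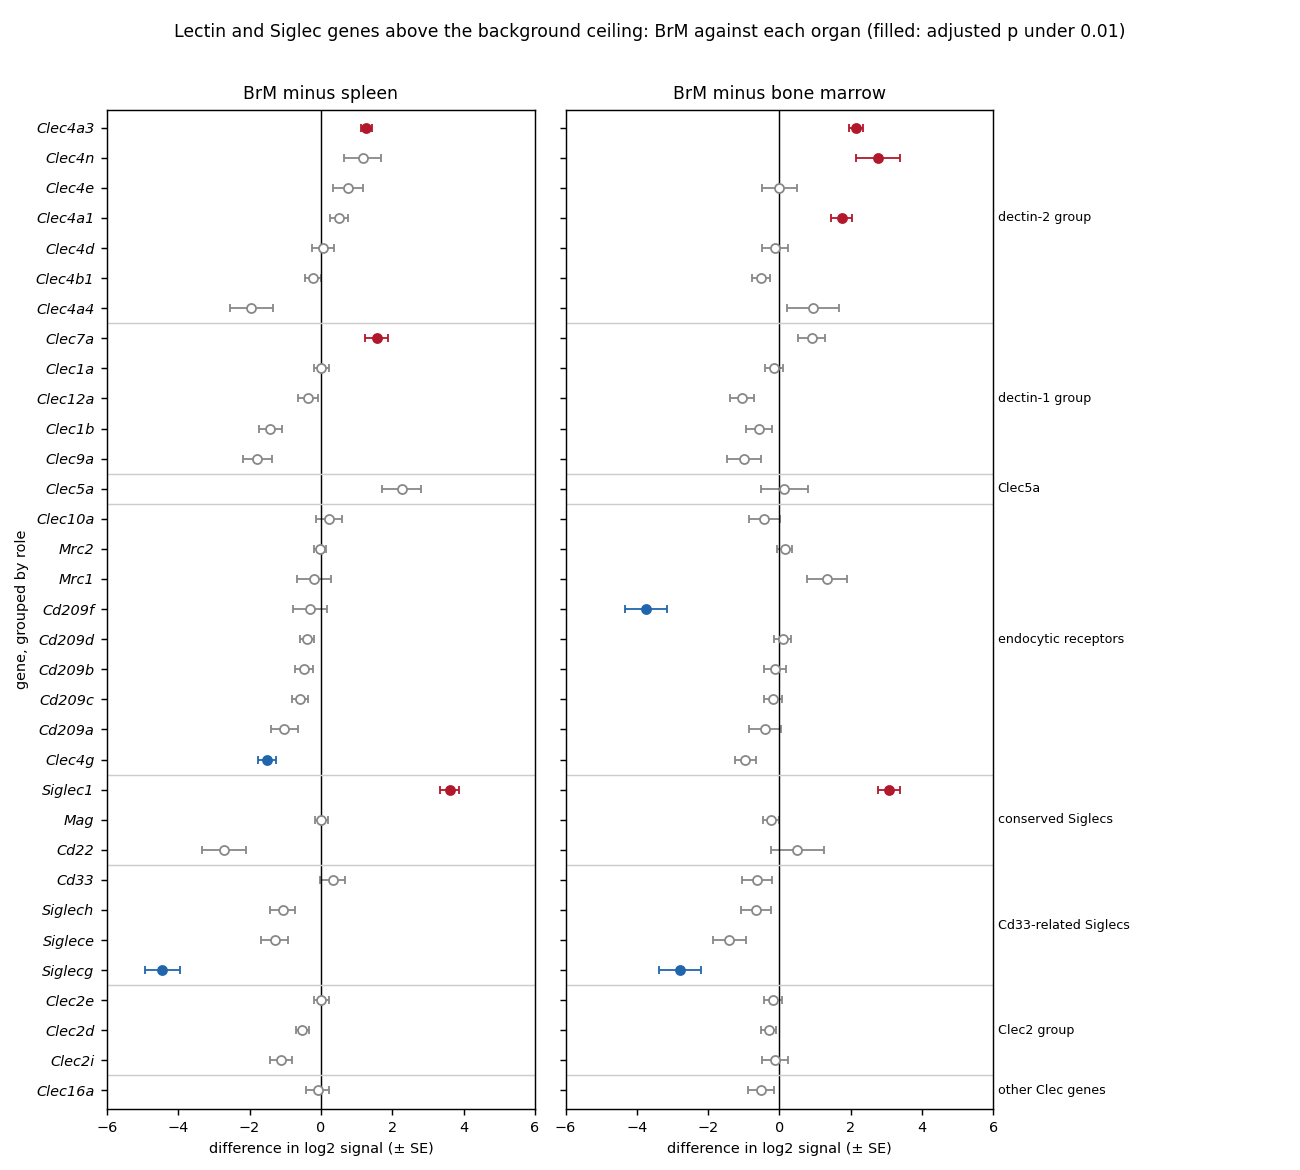
Difference in log2 signal (x axis, with SE) of BrM from spleen (left) and from bone marrow (right) for the 33 members above the background ceiling (y axis, grouped by role); filled points passed an adjusted p of 0.01, red for higher and blue for lower. Siglec1 and Clec4a3 were filled on the right of 0 in both panels and Siglecg on the left of 0 in both.

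Of the dectin-1 group, Clec7a, the beta-glucan receptor of macrophages and neutrophils, was the 1 member called higher against spleen. Its used probe gave 9.92, 10.26, 10.22 and 9.58 in PyMT BrM, 9.59 and 9.49 in EO771 BrM, 8.09, 8.85 and 6.89 in PyMT spleens and 8.83 and 8.11 in naïve spleens, without overlap. The rise was 1.56 ± 0.32 (2.96-fold; adjusted p = 0.00665), but the other Clec7a probe, with a mean of 8.32 over the arrays, differed by 0.17 and the call was lost when both were averaged (0.87). It was also lost in 10 of the 14 fits without 1 array (adjusted p up to 0.0432), all but those without PyMT BrM 4, PyMT spleen 2, PyMT spleen 3 or PyMT bone marrow 1. Against bone marrow, at 8.40 to 9.41, Clec7a differed by 0.91 ± 0.38 (adjusted p = 0.157).

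The rest of that group lay near the ceiling. Clec9a, the dead cell receptor of cross-presenting dendritic cells, had 4.49 to 6.81 in spleen and 3.51 to 5.29 in BrM (-1.78 ± 0.40, adjusted p = 0.0107). Its dimmer probes, with means of 3.50 and 2.92 over the arrays, differed by 0.55 and -0.78, neither called. Clec1b (CLEC-2), the podoplanin receptor of platelets, had 4.32 to 6.25 in spleen and 3.81 to 4.32 in BrM (-1.42 ± 0.31, adjusted p = 0.0101), and passed the threshold without PyMT spleen 2 (-1.61 ± 0.27, adjusted p = 0.00215). On this probe all 6 BrM arrays were under the ceiling, so the other spleens were at least 2.12-fold higher. The second Clec1b probe, with condition means of 3.77 to 4.29, all under the ceiling, differed by -0.21 with all arrays (adjusted p = 0.568). Clec12a, an inhibitory receptor for uric acid crystals, had 3.40 to 4.22 in BrM and 4.70 to 5.22 in bone marrow, without overlap (-1.06 ± 0.33, adjusted p = 0.054). Clec1a lay between 4.78 and 5.86 on all arrays. Clec12b, a related inhibitory receptor, was called lower against spleen (-1.43 ± 0.21, adjusted p = 0.000676) although its condition means, 2.31 to 4.31, all lay below the ceiling.

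Clec5a (MDL-1), an activating receptor that pairs with Tyrobp, was bright in BrM, at 8.47 to 8.99 in PyMT and at 8.47 and 8.42 in EO771. It was at 8.13 to 8.71 in bone marrow and at 6.03, 8.86 and 5.02 in PyMT spleens and 6.42 and 5.47 in naïve spleens, PyMT spleen 2 giving the 8.86. The difference from spleen was 2.26 ± 0.55 (adjusted p = 0.0172) with all arrays and 2.82 ± 0.25 (adjusted p = 3.30e-05) without that array, while that from bone marrow was 0.14 ± 0.66 (95% interval -1.29 to 1.57). With all arrays, the other 3 Clec5a probes differed from spleen by 0.88, 2.18 and 1.89, none of them called (adjusted p = 0.359, 0.053 and 0.0198).

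Endocytic receptors were the largest role group, with 12 members of which 9 were above the ceiling. None was called higher and 1 was called lower against each organ. Cd209f, 1 of the mouse homologs of human DC-SIGN, stood out in bone marrow with 7.38 in the PyMT mouse and 7.96 and 7.81 in naïve mice. In BrM it read 5.79, 4.00, 4.12 and 3.44 (PyMT) and 2.90 and 3.97 (EO771), and in spleens 3.99, 6.01 and 3.98 (PyMT) and 3.45 and 3.99 (naïve). The fitted difference of BrM from bone marrow was -3.75 ± 0.58 (adjusted p = 0.00108). Since 5 of the 6 BrM arrays were at or under the ceiling, bone marrow is given as at least 7.18-fold higher, counting those arrays at the ceiling. The highest values outside bone marrow were those of PyMT spleen 2 and PyMT BrM 1. The eosinophil list was high in bone marrow and in PyMT spleen 2 (13.3 to 14.4) and at 5.56 to 9.78 elsewhere. Most of the bone marrow sum came from Prg2, and Epx also had its highest means there. Ccr3 averaged 7.76 in naïve spleens and 6.16 in naïve bone marrow (6.94 and 7.13 in PyMT mice). PyMT BrM 1 had the lowest sum of the PyMT BrM arrays (6.65). Prg2, Epx, Ccr3 and Il5ra were all below the ceiling in EO771 BrM. The part of this list in the Cd209f values was not tested.

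Clec4g (LSECtin), an adhesion lectin of liver and lymph node sinus endothelium, was called lower in BrM than in spleen. It had 6.82, 5.75 and 6.69 in PyMT spleens, 5.67 and 5.61 in naïve spleens, 5.11, 4.48, 5.01 and 4.44 in PyMT BrM and 3.93 and 4.57 in EO771 BrM, without overlap. The difference was -1.52 ± 0.25 (adjusted p = 0.00169), a call lost without EO771 BrM 1. The second Clec4g probe, with condition means of 3.85 to 4.37, all under the ceiling, differed by -0.07 (adjusted p = 0.844). With both probes averaged the difference was -0.80, still called. On the brighter probe, spleen was at least 2.43-fold higher with the 4 BrM arrays under the ceiling counted at it. The mannose receptor Mrc1 was bright throughout, at 9.47 to 12.81 in BrM, 9.44 to 12.54 in spleen and 9.09 to 10.52 in bone marrow, and differed by -0.19 ± 0.47 from spleen and 1.34 ± 0.56 from bone marrow (adjusted p = 0.86 and 0.153). Without PyMT spleen 2 its difference from spleen was -0.57 ± 0.36 (adjusted p = 0.341). Clec10a (MGL1), a galactose lectin of macrophages, ranged from 3.68 to 7.07 with its highest values in naïve bone marrow. Cd209a ranged from 3.12 to 6.65, Cd209b from 3.59 to 5.43, Cd209c from 4.43 to 5.93, Cd209d from 3.52 to 5.22 and Mrc2, a collagen receptor, from 4.66 to 5.55, and none of these probes passed the threshold against either organ. The other 2 Cd209b probes did against spleen (-0.98 and -2.06, adjusted p = 0.00264 and 0.00127), with means above the ceiling only in naïve spleens (5.23 and 5.91).

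Among the Cd33-related Siglecs, Siglecg, an inhibitory receptor of B1 cells, gave the largest fall of the members against spleen. Its log2 signals were 9.67, 7.83 and 9.32 in PyMT spleens, 9.65 and 8.96 in naïve spleens, 7.53 in PyMT bone marrow and 7.36 and 7.37 in naïve bone marrow. BrM gave 3.37, 5.41, 6.25 and 4.59 in PyMT and 4.62 and 4.23 in EO771, below every array of the organs. The fitted differences were -4.45 ± 0.49 from spleen (adjusted p = 0.000118) and -2.78 ± 0.59 from bone marrow (adjusted p = 0.00711). With the 4 BrM arrays under the ceiling counted at it, spleen was at least 18.1-fold and bone marrow at least 5.69-fold higher. The call against bone marrow was lost in 9 of the 14 fits without 1 array (adjusted p up to 0.028) and held without PyMT BrM 1, PyMT BrM 3 or any 1 PyMT spleen. A dimmer second probe, with condition means of 3.47 to 5.90, differed by -2.23 from spleen and -0.76 from bone marrow.

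Cd22, the inhibitory Siglec of B cells, was highest in 4 of the 5 spleens. It was at 9.22 and 8.95 in PyMT spleens 1 and 3, 9.58 and 8.85 in naïve spleens, 5.14 in PyMT spleen 2, 6.10 to 6.66 in PyMT BrM, 4.84 and 5.53 in EO771 BrM and 4.82 to 5.70 in bone marrow. BrM differed from spleen by -2.72 ± 0.62 (adjusted p = 0.0127), and by -3.37 ± 0.22 (adjusted p = 4.52e-06) without PyMT spleen 2. Beside these values, the measured B cell genes (Cd79b, Ms4a1, Blk, Pax5 and Fcer2a) summed to 12.4 to 12.8 in those 4 spleens, 9.17 in PyMT spleen 2, 8.81 to 9.94 in bone marrow and 6.97 to 7.88 in BrM. In BrM, 4 of the 5 lay below the ceiling in both models, the exception being Cd79b, and their part in the Siglecg and Cd22 values was not tested.

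**Figure D3:**
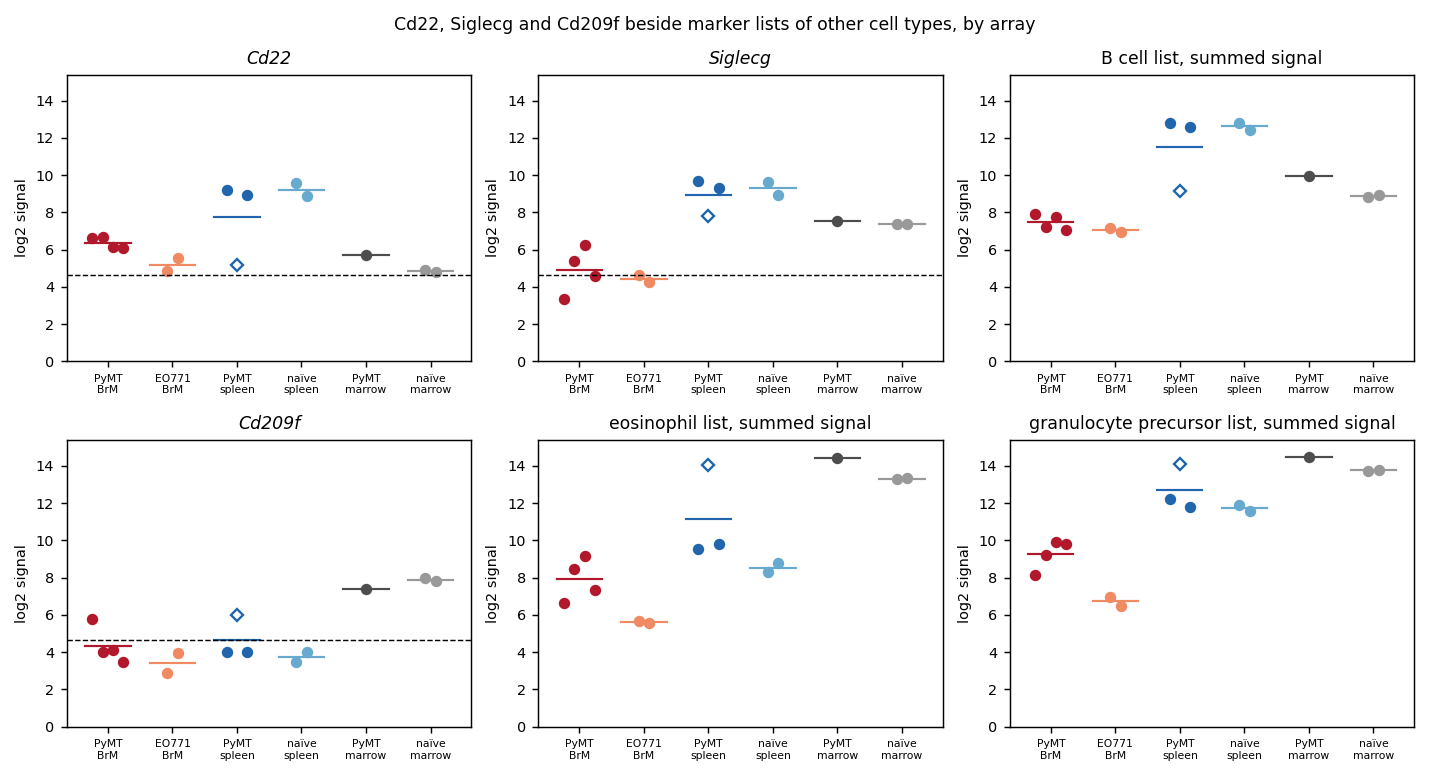
Log2 signal (y axis) of Cd22, Siglecg and Cd209f and the log2 of the summed signal of the B cell, eosinophil and granulocyte precursor lists, on each array by condition (x axis); points are arrays, lines condition means, the open diamond is PyMT spleen 2 and the dashed line is the background ceiling. PyMT spleen 2 gave 5.14 for Cd22 and 14.1 for the eosinophil list, apart from the other 4 spleens in both.

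Cd33 itself was at 9.20 to 10.40 in BrM, 8.58 to 11.10 in spleen and 10.34 to 10.38 in bone marrow. Siglece, an inhibitory receptor of neutrophils and macrophages, was at 2.67 to 5.62 in BrM, 4.53 to 6.73 in spleen and 5.32 to 5.63 in bone marrow, and its differences of -1.29 ± 0.38 and -1.40 ± 0.45 did not pass (adjusted p = 0.0428 and 0.0597). Siglech, a marker of plasmacytoid dendritic cells, was at 3.79 to 5.56 in BrM and 4.41 to 6.82 in spleen (-1.08 ± 0.35, adjusted p = 0.0682). Its dimmer probes, with condition means under the ceiling, differed from spleen by 0.20 and 0.33. In the Clec2 group, whose products are ligands of NK cell receptors, Clec2d was bright at 10.52 to 12.20 on all arrays and differed from spleen by -0.53 ± 0.18 (adjusted p = 0.0821). Clec2i was at 3.17 to 5.51 in BrM and 4.22 to 6.40 in spleen (-1.12 ± 0.32, adjusted p = 0.0355), called without PyMT spleen 2 (-1.36 ± 0.25, adjusted p = 0.00314), with the 4 PyMT BrM arrays under the ceiling. Clec2e was at 4.28 to 5.44 and Clec16a, an intracellular protein of autophagy with a lectin-like name, at 4.22 to 5.76, and neither was called against an organ.

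Without PyMT spleen 2, BrM against spleen had 5 members higher (Siglec1, Clec4a3, Clec7a, Clec5a and Clec4e) and 7 lower (Siglecg, Cd22, Clec4a4, Clec4g, Clec1b, Clec2i and Clec12b), where 5.60% of all probes were higher and 4.91% lower. Of these, Clec4e differed by 1.15 ± 0.22 (adjusted p = 0.00402), a mean that joined unlike parts. PyMT BrM, at 6.93 to 7.98, overlapped with PyMT spleens 1 and 3, at 7.63 and 7.25. EO771 BrM, at 10.71 and 10.30, lay above naïve spleens, at 8.24 and 8.22. The same omission gave 5 higher and 2 lower against bone marrow, where 6.29% of all probes were higher and 5.53% lower, Clec4a4 being the addition (0.94 ± 0.21, adjusted p = 0.00995). With all arrays that mean joined -0.33 in PyMT mice, where BrM and bone marrow were both under the ceiling, and 2.20 for EO771 against naïve, and neither was called. That comparison does not use the spleen arrays except through the shared estimate of the spread.

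The BrM models were compared directly to ask which receptors differed between myeloid cells of PyMT and EO771 BrM. In PyMT BrM 1 member was higher and 3 were lower, where 0.583% of all probes were higher and 1.00% lower. All 3 that were lower came from the dectin-2 block printed above.

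Clec4d (MCL), which forms a complex with Mincle and couples to Fcer1g, differed most. It read 9.19, 8.50, 8.87 and 9.63 in PyMT BrM and 12.87 and 12.19 in EO771 BrM, a difference of -3.49 ± 0.42 (11.2-fold; adjusted p = 0.00133). PyMT spleens had 10.47, 11.002 and 9.60, naïve spleens 10.70 and 11.49, PyMT bone marrow 10.42 and naïve bone marrow 11.42 and 11.44. PyMT BrM thus had the lowest and EO771 BrM the highest mean of the 6 conditions (9.05 and 12.53), though PyMT BrM 4 overlapped with PyMT spleen 3.

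Clec4e (Mincle), the receptor for mycobacterial cord factor and for a ribonucleoprotein of dying cells, had its highest values in EO771 BrM, with PyMT spleen 2 next. It read 7.33, 6.93, 7.98 and 7.61 in PyMT BrM and 10.71 and 10.30 in EO771 BrM (-3.05 ± 0.57, adjusted p = 0.0104), just outside the threshold with all arrays and inside it without PyMT spleen 2 (adjusted p = 0.000453). Spleens had 7.63, 9.82 and 7.25 (PyMT) and 8.24 and 8.22 (naïve), and bone marrow had 8.67 (PyMT) and 9.39 and 9.24 (naïve). Its second probe had means of 7.25 in PyMT and 9.60 in EO771 BrM (-2.35).

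Clec4a1 was lower in PyMT than in EO771 BrM by 2.02 on the log2 scale (difference -2.02 ± 0.34, 4.06-fold; adjusted p = 0.00639), from the values given above. Clec4b1 (DCAR), which couples to Fcer1g, was at 8.51, 8.06, 7.57 and 8.20 in PyMT BrM and 9.87 and 9.58 in EO771 BrM (-1.64 ± 0.29, 3.12-fold; adjusted p = 0.00867), a call lost when its 3 probes were averaged (-1.09, adjusted p = 0.017). The used Clec4b1 probe was at 8.53 to 9.65 in spleen and 9.06 to 9.90 in bone marrow. Its second probe, with a mean of 8.21 over the arrays, differed between the models by only -0.32 (adjusted p = 0.624). The dimmest, with a mean of 4.34, differed by -1.32 (adjusted p = 0.0186). Of the other genes of the block, Clec4a3 differed by -1.02 ± 0.22 (adjusted p = 0.022) on its brighter probe and by -3.05 (adjusted p = 0.000815) on its second, which was under the ceiling in PyMT BrM (3.94) and above it in EO771 BrM (6.99). Clec4a4 differed by -1.01 ± 0.83 and Clec4n by 0.45 ± 0.71 (95% interval -1.10 to 2.00). The median over the 8 dectin-2 group genes was -1.33, beside 0.01 over all probes.

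**Figure D4:**
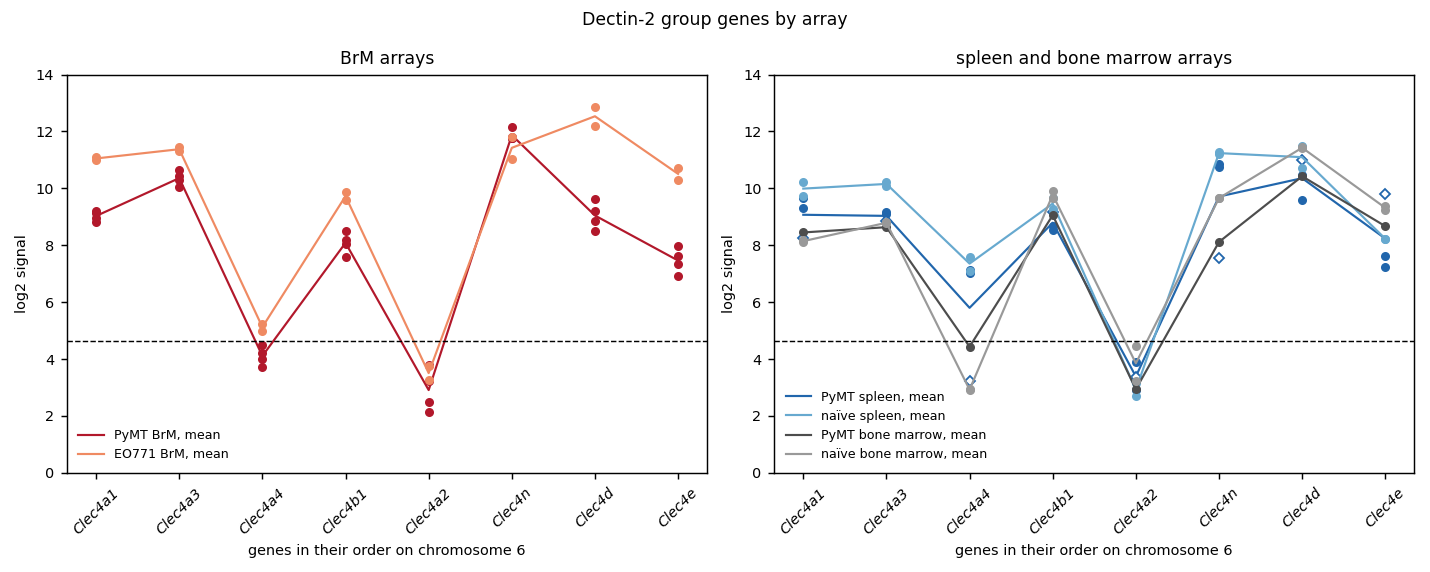
Log2 signal (y axis) of the 8 dectin-2 group genes in their order on chromosome 6 (x axis), in BrM (left) and in spleen and bone marrow (right); points are arrays, lines join condition means, open diamonds are PyMT spleen 2 and the dashed line is the background ceiling. At Clec4d the 2 EO771 BrM arrays lay at 12.19 and 12.87 and the 4 PyMT BrM arrays at 9.63 or less, while at Clec4n both models lay at 11.03 or more.

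The same genes were compared in control tissue of both mouse sets. PyMT minus naïve spleens gave -0.74 ± 0.44 for Clec4d, 0.01 ± 0.60 for Clec4e, -0.92 ± 0.36 for Clec4a1, -0.67 ± 0.31 for Clec4b1 and -1.12 ± 0.24 for Clec4a3 (adjusted p = 0.386, 0.997, 0.186, 0.257 and 0.0335). These were, without PyMT spleen 2, -1.06 ± 0.44, -0.79 ± 0.33, -0.52 ± 0.25, -0.86 ± 0.31 and -1.03 ± 0.23, and none passed (adjusted p = 0.185, 0.192, 0.255, 0.136 and 0.0373). PyMT minus naïve bone marrow, with 1 PyMT array, gave -1.003 ± 0.59, -0.65 ± 0.80, 0.31 ± 0.48, -0.72 ± 0.42 and -0.15 ± 0.32 for the same genes. The test of whether BrM minus spleen differed between the models gave -2.75 ± 0.61 for Clec4d, -3.05 ± 0.82 for Clec4e, -1.10 ± 0.49 for Clec4a1 and -0.97 ± 0.43 for Clec4b1, and none passed (adjusted p = 0.106, 0.181, 0.431 and 0.427). The same test without PyMT spleen 2 gave -2.43 ± 0.58, -2.26 ± 0.43, -1.50 ± 0.33 and -0.79 ± 0.41 (adjusted p = 0.101, 0.0547, 0.0835 and 0.417). In the monocyte list, Vcan, Plac8 and Ly6c1 were also called lower in PyMT BrM among 6 genes, with none higher. The other 3 had higher means in PyMT than in EO771 BrM, by 2.15 ± 0.43 for Fn1 (adjusted p = 0.0139, without overlap), 0.37 ± 0.69 for Ccr2 and 0.05 ± 0.60 for F13a1. Summed monocyte signals were 12.7 to 13.6 in PyMT BrM and 14.6 to 14.7 in EO771 BrM, and neutrophil signals were 12.8 to 14.4 and 12.5 to 13.2. The part of these lists in the dectin-2 group values was not tested.

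Mag, the myelin-associated Siglec of oligodendrocytes, was the member called higher in PyMT BrM. Its brighter probe gave 8.32, 8.27, 8.59 and 8.44 in PyMT BrM, 6.22 and 6.71 in EO771 BrM, 7.60, 7.87 and 7.29 in PyMT spleens, 7.01 and 7.51 in naïve spleens, 7.98 in PyMT bone marrow and 7.42 and 7.35 in naïve bone marrow. The models differed by 1.94 ± 0.25 (3.83-fold; adjusted p = 0.00206). The second Mag probe had condition means of 3.68 to 4.47, all under the ceiling, and differed by -0.20. With both averaged the difference was 0.87 and not called. The oligodendrocyte genes Mog and Mobp had means below the ceiling in every condition. Sox10, of the same list, averaged 5.25 in PyMT BrM (3.63, 6.47, 4.87 and 6.02), 2.39 in EO771 BrM and 2.87 to 3.90 in the organs (2.86 ± 0.64 between the models, adjusted p = 0.0228). Mbp and Cnp averaged 8.58 and 7.93 in PyMT BrM and 8.44 and 7.53 in EO771 BrM, and the summed list was at 9.14 to 9.69 in BrM and 10.04 to 10.41 in the organs, and its part in the Mag values was not tested. Mag and Cd22 are neighbours on chromosome 7 with no coding gene between them.

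All 4 calls between the models rest on 2 EO771 arrays. Leaving out either of these ended the calls of Clec4d (adjusted p up to 0.0337) and Mag (up to 0.049), and Clec4a1 and Clec4b1 were each lost in 10 of the 14 fits without 1 array (adjusted p up to 0.0861 and 0.122), holding for both without PyMT spleen 2, PyMT spleen 3 or PyMT bone marrow 1, for Clec4a1 also without PyMT spleen 1 and for Clec4b1 also without PyMT BrM 1. Without PyMT spleen 2, 1 member was higher and 4 were lower, where 1.58% of all probes were higher and 2.02% lower. Among members not called, Mrc1 was at 11.64 to 12.81 in PyMT and at 9.47 and 10.50 in EO771 BrM (2.33 ± 0.64, adjusted p = 0.0552) and Siglece at 4.59 to 5.62 and 2.67 and 3.62 (1.91 ± 0.52, adjusted p = 0.0528), each without overlap. Siglece was under the ceiling in both EO771 BrM arrays and in PyMT BrM 2. Its dimmer probes differed by 0.56 and 0.008 (adjusted p = 0.543 and 0.994).

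Spleen and bone marrow were then set against each other. With all arrays limma called no member, and 0.00442% of all probes. At an unadjusted p under 0.05, 9 members were higher in spleen and 4 lower, where 16.2% of all probes passed. Without PyMT spleen 2, 5 members were higher in spleen and 3 lower, where 3.43% of all probes were higher and 2.85% lower. The higher were Cd22 (3.87 ± 0.27), Clec4a4 (3.54 ± 0.22), Clec4n (2.13 ± 0.22), Clec4a1 (1.43 ± 0.20) and Clec4a3 (0.93 ± 0.18), and the lower were Cd209f (-3.78 ± 0.50), Clec5a (-2.68 ± 0.30) and Cd33 (-1.29 ± 0.26). The 3 bone marrow arrays were under the ceiling for Clec4a4 and the 4 spleens for Cd209f, so spleen was at least 5.96-fold higher in Clec4a4 and bone marrow at least 7.93-fold higher in Cd209f. Their adjusted p-values ran from 2.43e-05 for Clec4a4 to 0.00825 for Cd33. Each of the 8 had the same sign with all arrays, at 3.21, 2.90, 1.59, 1.23, 0.88, -3.44, -2.13 and -0.96 in the same order. The fits share all the other arrays, so the equal signs are not separate evidence. The array left out was chosen for its likeness to bone marrow, and leaving it out widened each of these differences.

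**Figure D5:**
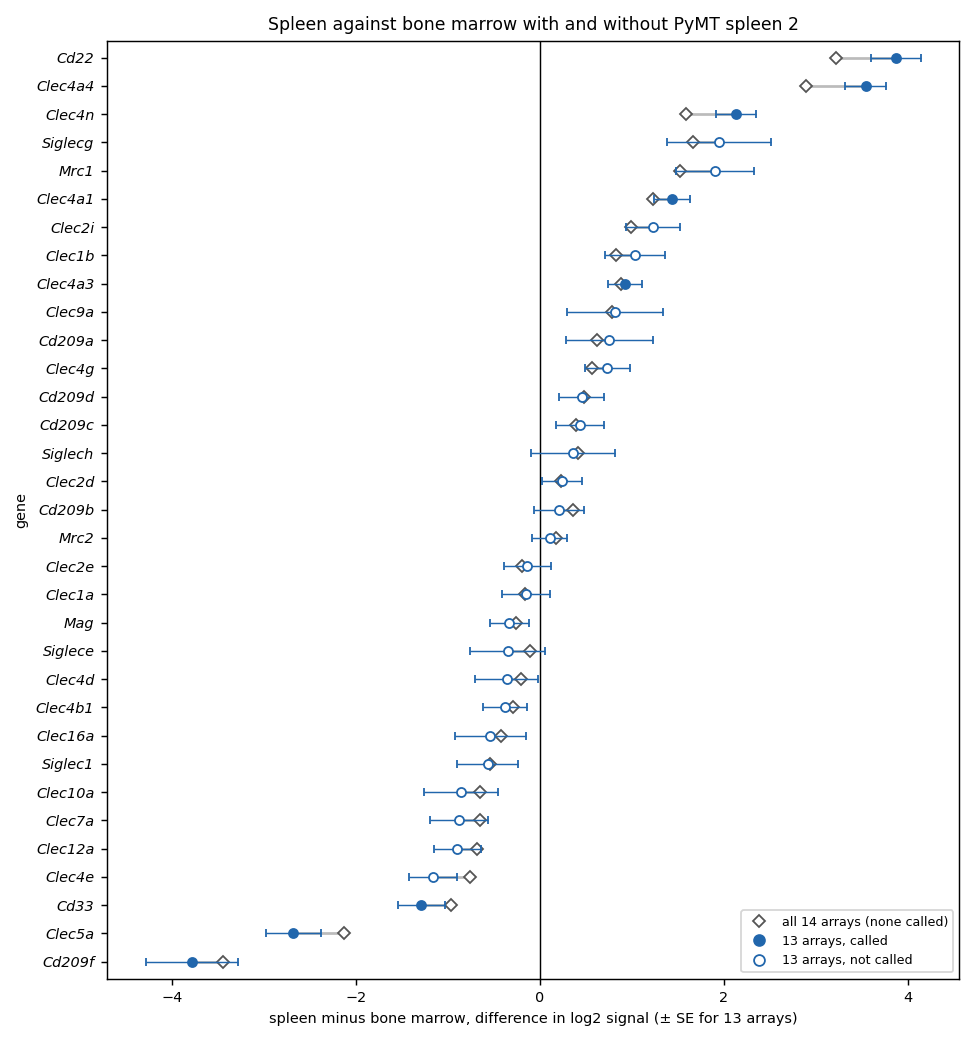
Spleen minus bone marrow in log2 signal (x axis) for the 33 members above the background ceiling (y axis); open diamonds are the fit of all 14 arrays, circles the fit of 13 arrays without PyMT spleen 2 with SE, filled where the adjusted p was under 0.01. Cd22 moved from 3.21 to 3.87 and Clec5a from -2.13 to -2.68.

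PyMT and naïve spleens were compared because the naïve organs stood in for those of EO771 mice. No member was called, where 0.115% of all probes were, and at an unadjusted p under 0.05 limma gave 1 higher and 7 lower (19.4% of all probes passed). The smallest adjusted p was that of Clec4a3, given above, whose second probe did pass (-2.94, adjusted p = 0.0068), with means of 2.69 in PyMT spleens, under the ceiling, and 5.63 in naïve spleens. Clec10a was at 3.68, 5.32 and 4.46 in PyMT spleens and at 6.35 and 6.18 in naïve spleens (-1.78 ± 0.53, adjusted p = 0.096; -2.20 ± 0.51, adjusted p = 0.0418 without PyMT spleen 2), and bone marrow had 5.02 in the PyMT mouse and 7.07 and 6.98 in naïve mice. The difference between the models in BrM against spleen gave no member called, where 0.0287% of all probes were, and 5 higher and 4 lower at an unadjusted p under 0.05 (11.3% of all probes passed). With all arrays the largest was Mrc1, with 3.12 ± 0.93 (adjusted p = 0.224): it was 1.37 ± 0.57 above spleen in PyMT BrM and -1.75 ± 0.74 from naïve spleen in EO771 BrM. Without PyMT spleen 2 it was 2.37 ± 0.71 (adjusted p = 0.171), below Clec4d (-2.43) in size.

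Of 13 measured adaptors, kinases and phosphatases downstream of these receptors, 1 was called higher and 2 lower against spleen (median -0.08). Against bone marrow 2 were lower (median -0.29). Beside this list and those that follow, 3.67% of all probes were higher and 3.08% lower against spleen. Against bone marrow these shares were 4.19% and 3.60%. Fcer1g, an adaptor of Clec4n, Clec4e, Clec4d and Clec4b1 in the dectin-2 group, was higher in BrM than in spleen (0.86 ± 0.17, adjusted p = 0.00643). It was at 13.96 to 14.50 in BrM and 13.03 to 13.81 in spleen. Hcst, the DAP10 adaptor, was lower against spleen (-1.50 ± 0.23) and bone marrow (-2.32 ± 0.27), and Ptpn6, the phosphatase of inhibitory receptors, by smaller amounts (-0.92 ± 0.18 and -1.03 ± 0.21), all 4 called. Tyrobp (-0.03 ± 0.19 from spleen), Syk (-0.63 ± 0.32) and Card9 (0.12 ± 0.30) did not pass against spleen. Malt1, of the Card9 complex, was lower in PyMT than in EO771 BrM (-1.43 ± 0.24, adjusted p = 0.00611).

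Of 19 other measured genes with lectin-like domains, 4 were higher and 1 lower against spleen, and 4 higher and 1 lower against bone marrow (medians 0.12 and 0.62). Klrb1b, the inhibitory NK cell receptor that binds the product of Clec2d, was at 8.25, 8.39, 8.40 and 8.75 in PyMT BrM and 6.23 and 6.66 in EO771 BrM, and at 3.05 to 4.55 in the organs. All 5 spleens were under the ceiling, so BrM was at least 6.97-fold higher (adjusted p = 3.98e-07), and the gene was called higher in PyMT than in EO771 BrM (2.01 ± 0.23, adjusted p = 0.0011). Cd93 rose against spleen by 2.58 ± 0.25 and Cd69 by 1.92 ± 0.35. Mgl2, a galactose lectin paralog of Clec10a, was at 11.31, 10.14, 10.79 and 10.23 in PyMT BrM and 6.89 and 7.44 in EO771 BrM (3.45 ± 0.49, adjusted p = 0.00286), whereas Clec10a differed there by -0.51 ± 0.50. Conventional dendritic cell genes summed to 14.35 to 14.47 in PyMT BrM and 11.99 to 12.96 in EO771 BrM. The sum follows H2-Ab1 (means 14.36 and 12.39). Batf3 had means of 7.89 and 6.26, Ciita of 9.57 and 6.79, Flt3 of 3.77 and 4.04, Xcr1 of 3.22 and 3.19, Zbtb46 of 4.69 and 4.46 and Ccr7 of 5.17 and 5.69, and none of the 8 was called between the models. Their part in the Mgl2 and Mrc1 values was not tested.

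Among 15 genes of sialic acid synthesis, transfer and removal, whose products make or cut Siglec ligands, none was higher in BrM and 3 were lower against spleen and 2 against bone marrow (medians -0.08 and -0.28). St3gal5, which makes the ganglioside GM3, fell by 2.17 on the log2 scale against spleen (difference -2.17 ± 0.38, adjusted p = 0.00278) and by 4.16 against bone marrow (-4.16 ± 0.46, adjusted p = 0.000128). St3gal6 differed by -1.73 ± 0.21 and -1.77 ± 0.25, and Gne, the entry enzyme of the pathway, by -1.01 ± 0.16 against spleen. None of the 15 was called between the BrM models.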

How the data were processed

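The 14 arrays (Illumina MouseWG-6 v2) measured RNA of sorted GFP+CD11b+ cells. The deposited values are log2 signals per probe that the authors background-corrected and quantile normalized, naming GenomeStudio 2011.1 and limma; no genome build is given in the sources used here. Of 45281 probes, 34885 had 1 gene symbol, 18 several and 10378 none (22.9%). Arrays carry no counts, so their number limits the precision. The deposited log2 values were fitted here in 1 model of 6 conditions with limma 3.58.1 (R 4.3.3; lmFit and eBayes without trend, 8 residual degrees of freedom), and two-sided p-values were adjusted by Benjamini and Hochberg's method across every probe. A member was called at an adjusted p under 0.01. Spleen and bone marrow comparisons are means of the PyMT and the EO771/naïve contrasts. Standard errors are limma's moderated ones, folds are 2 to the power of the log2 difference. Quantile normalization makes all values relative to the rest of the array. Summed list signals are log2 of the sum of linear signals.

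The members and gene lists were chosen with earlier results of these data known. Members called in any comparison are named with values, members above the background ceiling at least by level, and the others by their range; list genes were named after their values were seen. List genes that no probe names were not used here. The fit was tested on simulated data. Promoters are RefSeq's (GRCm38.p6), searched over 200 bases before each start; figures used Python 3.11.15 and matplotlib 3.10.9. The alternatives tried were reference gene centring, cyclic loess, leaving out dim probes, a mean-variance trend, array weights, averaged probes, a block by title number or by code, models pooled by tissue, averaged naïve bone marrow arrays, another threshold, the methods' t-test and leaving out each array. For arrays with equal title numbers or equal codes, the deviations from condition means correlated within 0.09 of 0. In conditions of 2 arrays such deviations mirror each other, and the lone PyMT bone marrow array has none. The check therefore cannot settle whether arrays shared a mouse. The main fit has no block.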

Additional observations from a re-analysis of the deposited data

Results flagged for a closer look

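In PyMT BrM, the only condition with enough arrays for a check of single high or low arrays, 4 of the 47 members had an array whose gap to the others took up most of the range; about 1 in 20 would by chance. Clec4n read 12.14 in PyMT BrM 1 and 11.75 to 11.80 in the others. Clec2i read 3.17 in PyMT BrM 1, against 3.98 to 4.13, both under the background ceiling. Clec2m read 3.07 in PyMT BrM 2 and 3.76 to 3.86 in the others, and Clec14a read 2.52 in PyMT BrM 3 and 3.12 to 3.23 in the others, all under the ceiling in that condition.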

How the results depend on the processing

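No direction turned in any of the 397 refits of the 16 called gene results: 313 kept the call and 84 lost it. Siglec1 against both organs, Siglecg against spleen and Cd209f against bone marrow kept it under every alternative and without each array. Centring on 10 reference genes moved the median of all probes by -0.16 against spleen, -0.21 against bone marrow, 0.19 between PyMT and naïve spleens and -0.13 in the difference between the models. Against spleen, 6 members were lower with that centring, 5 with cyclic loess, 5 with dim probes left out, 6 with a trend, 8 with array weights, 8 at an adjusted p under 0.05 and 1 by the methods' t-test, by which 1 was higher. Against bone marrow, 2 were higher with models pooled, 2 by the t-test, and 4 were lower with array weights, 1 with the naïve bone marrow arrays averaged and 1 by the t-test. Between PyMT and EO771 BrM, 3 were higher with array weights and 0 with probes averaged, and 5 were lower with dim probes left out, 5 with a trend, 6 with array weights and 5 at an adjusted p under 0.05. Array weights gave 3 higher and 2 lower in spleen against bone marrow. In PyMT against naïve spleens 1 was lower with dim probes left out, 1 with probes averaged and 1 at an adjusted p under 0.05. With the title number as a replicate block, 2 were higher and 2 lower against spleen, and 2 higher and 1 lower against bone marrow. Between the BrM models, 0 were higher and 0 lower with that block. Title numbers and title codes join the same arrays only in part. Leaving out 1 array gave 2 to 5 higher and 2 to 7 lower against spleen, 3 to 5 and 1 to 4 against bone marrow, 0 to 1 and 0 to 4 between the BrM models, and 0 to 5 and 0 to 3 in spleen against bone marrow; the upper ends against spleen and in spleen against bone marrow came without PyMT spleen 2. For the lone PyMT bone marrow array the spread of the other conditions is assumed. The member counts in this paragraph are given without the share of all probes called under each setting. They show only how the member calls moved. The causes were not tested.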
